A study of Ictidomys tridecemlineatus with 5 samples.

Results

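The core circadian clock genes examined here are CLOCK, NPAS2, BMAL1, PER1, PER2, PER3, CRY1, CRY2, NR1D1 and NR1D2, in ocular tissue of the wild-type thirteen-lined ground squirrel, Ictidomys tridecemlineatus, a hibernating rodent active by day. They were chosen by name, as the assembled transcripts whose best Swiss-Prot hit carries 1 of these 10 entry names, and all 10 had transcripts in both tissues. They account for 34 of 61797 transcripts with a Swiss-Prot hit in eye and 51 of 62889 in retina, and for 10 of the 13949 protein names found in both tissues. RNA was sequenced in 2 libraries of eye and 3 libraries of isolated retina, each prepared from RNA pooled from 4 squirrels per the labels. The deposited tables hold 1 pooled value per transcript and tissue, so the differences between eye and retina cannot be set against a spread of replicates and carry no p-values. The sources used here give no hour of collection, light schedule, age, sex or season of the animals.

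The mammalian clock is a feedback loop of transcription. CLOCK or its paralog NPAS2 pairs with BMAL1 and activates the PER and CRY genes, whose proteins return to the nucleus and inhibit that activation. A second loop runs through the REV-ERB nuclear receptors NR1D1 and NR1D2, which repress BMAL1 and compete with ROR receptors for the same sites. The mammalian retina holds a clock of its own, and many clock transcripts cycle over the day, so a level can depend on the hour at which the tissue was taken.

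Levels are in RPKM, reads scaled to transcript length and library depth, a scale on which genes can be compared per length. The level of a gene is that of its highest transcript, and a difference is the log2 of (eye RPKM + 1) over (retina RPKM + 1), a scale that understates differences of low genes. The total used for scaling, read from the step size of the values, was 264219334 reads in eye and 355988270 reads in retina. Reads recovered from the values summed to 19.2 times that total in eye and 10.5 times in retina, so the depth itself is not known. The part of this excess in the differences below was not tested. The 95% counting intervals of the members' differences had half-widths of 0.017 to 0.076, and they cover counting error only.

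The tissue labels were compared with marker genes. All 6 markers of photoreceptors and retinal neurons were lower in eye, with summed levels of 3479 RPKM in eye and 7026 RPKM in retina, a ratio of 0.495, and single ratios of 0.423 to 0.633. Lens markers summed to 7416 RPKM in eye and 25.9 RPKM in retina, corneal keratins to 3887 RPKM in eye and 1.59 RPKM in retina, and extraocular muscle markers to 646 RPKM in eye and 2.38 RPKM in retina. Blood markers had a ratio of eye to retina of 34.6 and markers of pigmented cells one of 17.1. Both Mueller glia markers, RLBP1 and GLNA, were slightly higher in eye, with a summed ratio of 1.07. The keratin K2C3 and the myosin MYH2 had a level in eye only. In such bulk tissue, fewer cells of a type and less RNA per cell cannot be told apart. The part of this tissue makeup in the differences below was not tested.

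The clock genes were expressed in both tissues over a wide range, and most were lower in eye. Of the 10 genes, 7 were lower and 3 higher in eye, with a median difference of -0.32, between -0.94 for NR1D1 and 0.40 for NPAS2. NPAS2 reached the 1 RPKM needed for this comparison in eye only, so it could count only as higher. With the lowest E-value and with length-weighted means it fell short in both tissues and was left out. Among the 13383 proteins that reached 1 RPKM in eye or retina, 50.3% were lower in eye and 49.7% higher, and the median difference was -0.0035 with quartiles at -0.32 and 0.44. None of the 10 reached a 2-fold difference in either direction, against 15.4% of all proteins, with 11.8% higher and 3.6% lower in eye by that much. The largest differences among the clock genes, those of NR1D1 and PER3, were just inside 2-fold. They passed it, at -1.22 and -1.13, with the tissues set to equal totals. A highest transcript can favour the tissue with more transcripts. NR1D1 had 2 in eye and 10 in retina, and PER3 had 1 in eye and 10 in retina. By length-weighted means they differed by -0.53 and -0.08, and 7 of 9 genes were lower in eye, against 45.6% of all proteins. The part of transcript number in the differences was not tested.

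**Figure D1:**
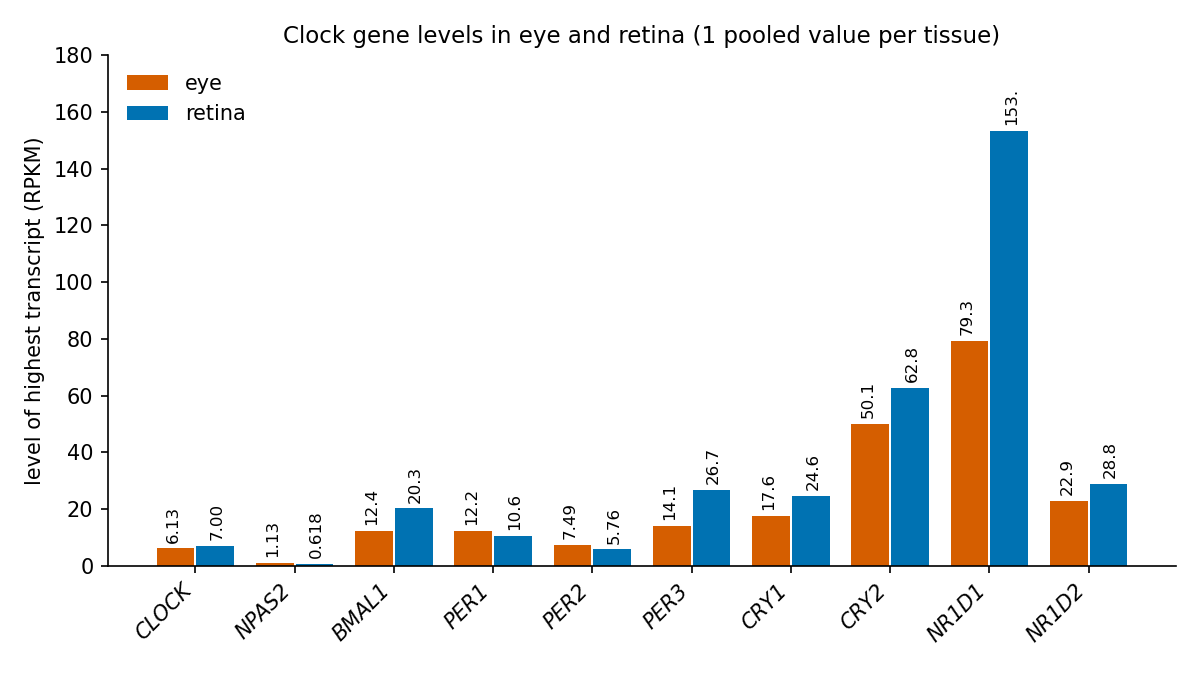
Level of the highest transcript of each clock gene in RPKM (vertical axis, linear), with eye in orange left of retina in blue; each bar is 1 pooled value and has no error bar. NR1D1 stands highest in both tissues, at 79.3 RPKM in eye and 153 RPKM in retina, and NPAS2 lowest, at 1.13 RPKM in eye and 0.618 RPKM in retina.

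**Figure D2:**
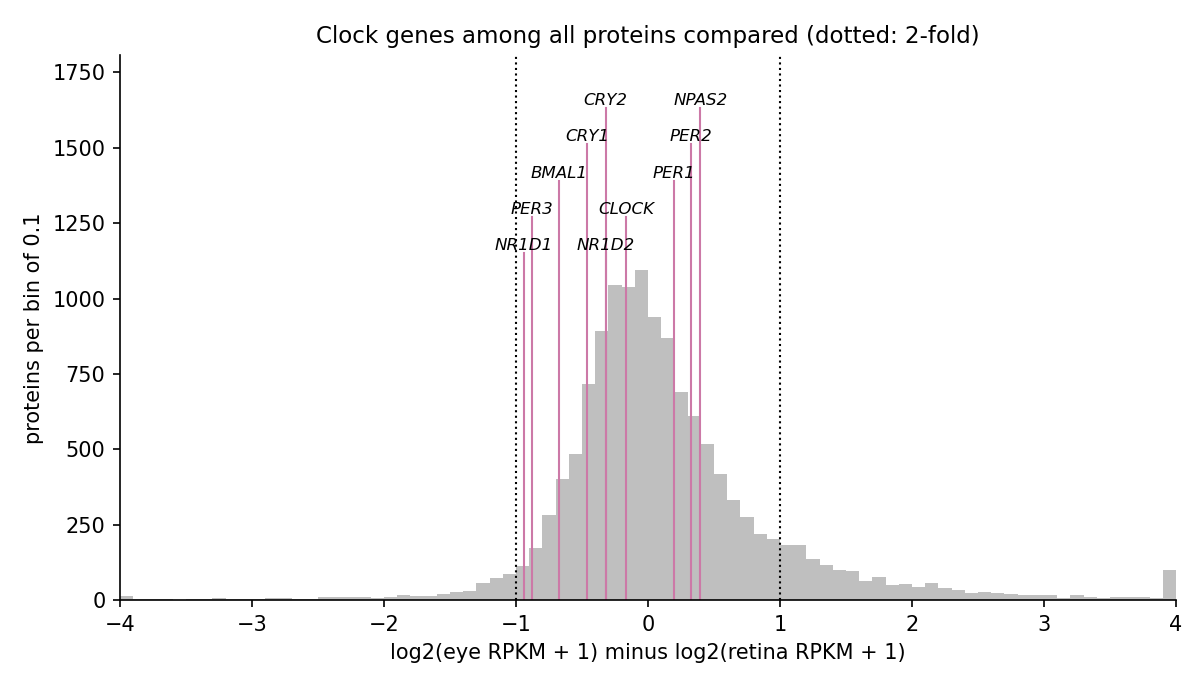
Number of proteins (vertical axis) by log2 difference of eye minus retina (horizontal axis, bins of 0.1, with the end bins holding all values beyond them), and the 10 clock genes as vertical lines. Of the clock genes 7 lie left of 0, and all lie between the dotted 2-fold marks.

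Among the activators, BMAL1 was lower in eye, CLOCK differed little and NPAS2 was scarce in both tissues. BMAL1, the obligate partner of CLOCK and NPAS2, stood at 12.4 RPKM in eye and 20.3 RPKM in retina, a difference of -0.67 (counting interval -0.71 to -0.63). Both values come from transcripts of similar length, 2310 bases in eye and 2329 bases in retina, which align to 602 residues of BMAL1 in eye and 579 in retina. In eye, 3 transcripts of BMAL1 aligned to 600 residues or more, at 12.2 to 12.4 RPKM. All of these lay below the longest retina transcript, although shorter retina fragments reached down to 1.01 RPKM, so the full sets of transcripts overlap. Over 14 settings the BMAL1 difference lay between -0.93, with equal totals, and -0.32, with length-weighted means.

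CLOCK, a PAS-domain transcription factor with acetyltransferase activity, had 6.13 RPKM in eye and 7.00 RPKM in retina, a difference of -0.17 (-0.21 to -0.13). Its 4 eye transcripts were at 5.05, 5.75, 6.02 and 6.13 RPKM, and its single retina transcript, of 10705 bases, lay above all of them. Summed over transcripts, CLOCK was higher in eye instead, by 1.58. The 7936-base eye transcript at 5.05 RPKM matched CLOCK over only 57 residues, while the other 3 matched over 735 to 743. NPAS2, the paralog that can stand in for CLOCK in mice, had 1.13 RPKM in eye from 628 reads and 0.618 RPKM in retina from 516 reads, a difference of 0.40 (0.32 to 0.47). The retina transcript covered 780 residues of NPAS2, whereas the eye was represented by 4 fragments at 0.467 to 1.13 RPKM that covered at most 341, so single eye fragments lay on either side of the retina level. CLOCK exceeded NPAS2 5.43-fold in eye and 11.3-fold in retina.

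The PER genes did not share a direction by this measure. PER1, a light-inducible repressor in the mouse clock, stood at 12.2 RPKM in eye and 10.6 RPKM in retina, a difference of 0.19 (0.15 to 0.23). The eye value belongs to a 4645-base transcript aligned over 1181 residues, and a second of 4722 bases stood at 12.05 RPKM. The retina value belongs to a 1613-base transcript aligned over 324 residues, while the longest retina alignments, of 830 residues, were at 8.54 and 8.49 RPKM. The remaining eye transcript, of 2023 bases aligned over 215 residues, stood at 3.76 RPKM, below all 7 retina transcripts at 5.93 to 10.6 RPKM. The longest transcripts of PER1 differed by 0.45. Its direction turned with scaling to an equal total, at -0.06, and with transcripts summed, at -0.93.

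PER2, the PER protein whose loss shortens or abolishes the rhythm in mice, had 7.49 RPKM in eye and 5.76 RPKM in retina, a difference of 0.33 (0.27 to 0.38). Its direction depended on the transcript. The eye value came from a 1175-base fragment, and the longest transcripts, of 5217 bases in eye and 5775 bases in retina, stood at 4.87 RPKM in eye and 5.76 RPKM in retina, a difference of -0.21. Fragments alone went the other way, at 6.22 to 7.49 RPKM in eye and 4.50 and 4.63 RPKM in retina.

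PER3, a PER paralog that is less needed for the rhythm in mice, had the second largest difference, at 14.1 RPKM in eye and 26.7 RPKM in retina, or -0.88 (-0.90 to -0.85). The eye assembly held PER3 as 1 transcript of 6513 bases aligned over 1075 residues. The retina assembly held it in 10 pieces at 3.89 to 26.7 RPKM, none aligned over more than 618 residues, so the retina pieces lie on both sides of the eye value. The highest piece, of 3207 bases, matched PER3 over 124 residues with 58% positives. The longest retina piece, of 4441 bases, stood at 16.6 RPKM, which gives a difference of -0.22, the length-weighted mean over the pieces gave -0.08, and the best-matching piece gave 0.11.

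**Figure D3:**
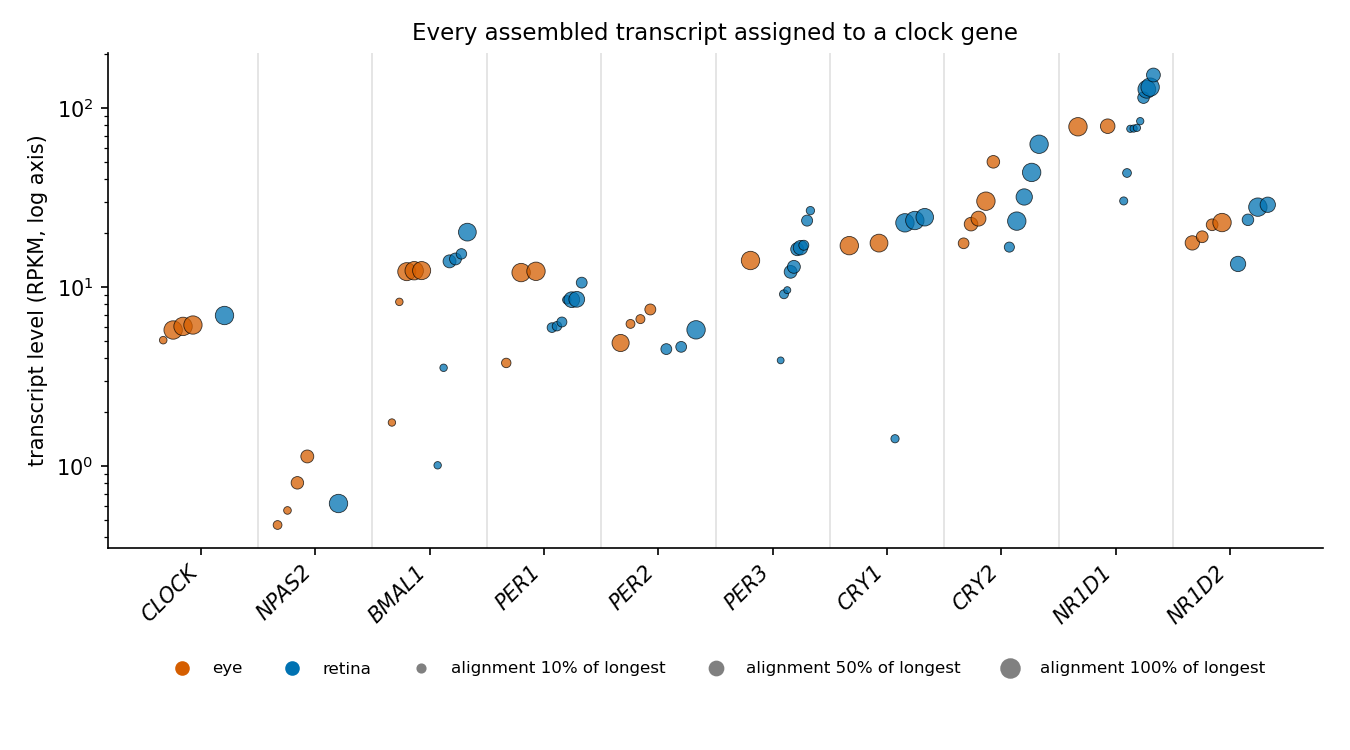
RPKM (vertical axis, log scale) of each assembled transcript of the clock genes, with eye in orange left of retina in blue; the area of a point grows with the share of the gene's longest alignment that the transcript covers. PER3 is 1 eye transcript at 14.1 RPKM among 10 retina pieces at 3.89 to 26.7 RPKM, while long CRY1 transcripts in eye lie below those in retina.

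Both cryptochromes, repressors that bind CLOCK and BMAL1 together with the PER proteins, were lower in eye. CRY1 had 2 eye transcripts at 17.0 and 17.6 RPKM and 3 long retina transcripts at 22.9, 23.5 and 24.6 RPKM, all aligned over 529 residues or more. The eye transcripts lay below these retina transcripts, but transcripts of the same gene are not replicates. The difference of the highest was -0.46 (-0.49 to -0.43). The remaining retina transcript, of 196 bases at 1.42 RPKM, matched CRY1 with only 56% positives, and with it the ranges of the full sets overlap.

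CRY2 exceeded CRY1 in both tissues, 2.85-fold in eye and 2.56-fold in retina by the highest transcripts, and 1.72-fold in eye and 2.56-fold in retina by transcripts of near-full alignment. Its highest transcripts were at 50.1 RPKM in eye and 62.8 RPKM in retina, a difference of -0.32 (-0.34 to -0.30). The eye transcript of 2835 bases matched CRY2 over 235 residues. The single eye transcript that covered 574 residues stood at 30.2 RPKM, and the retina transcripts that did so stood at 62.8, 43.7 and 23.4 RPKM, which overlap the eye level. With the highest of these the difference grew to -1.03 (-1.06 to -1.01), past 2-fold.

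The REV-ERB receptors held places 1 and 3 among the clock genes in both tissues, and both were lower in eye. NR1D1, or REV-ERB alpha, had 79.3 RPKM in eye and 153 RPKM in retina, a difference of -0.94 (-0.96 to -0.92), the largest of the 10. The retina value comes from a 993-base fragment. The transcripts aligned over 597 residues, of 2366 bases in eye and 2299 bases in retina, stood at 78.7 RPKM in eye and 131 RPKM in retina, a difference of -0.73 (-0.74 to -0.71). In retina 4 transcripts of 993 to 3079 bases lay between 114 and 153 RPKM, above both eye transcripts, and 6 fragments of 107 to 697 bases lay between 30.3 and 84.6 RPKM, so the full sets overlap.

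NR1D1 lies beside the thyroid hormone receptor gene THRA in the RefSeq table of this species, in mouse and human on the opposite strand with overlapping ends, and the use of strand in counting is not given in the sources used here. THRA, under the Swiss-Prot name THA, stood at 89.5 RPKM in eye and 81.7 RPKM in retina, a difference of 0.13. The THA values come from unlike transcripts, of 558 bases in eye and 1787 bases in retina, and with equal totals the difference was -0.14. The part of reads shared between these genes was not tested. NR1D2, or REV-ERB beta, had 22.9 RPKM in eye and 28.8 RPKM in retina, a difference of -0.32 (-0.34 to -0.30). Transcripts aligned over 579 residues, of 5235 bases in eye and 5224 bases in retina, stood at 22.9 RPKM in eye and 28.0 RPKM in retina, or -0.28. The other transcripts of NR1D2 spread from 17.6 RPKM in eye and from 13.5 RPKM in retina, so the sets overlap.

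The order of levels was similar in the 2 tissues. From high to low it ran NR1D1, CRY2, NR1D2, CRY1, PER3, BMAL1, PER1, PER2, CLOCK and NPAS2 in eye, and NR1D1, CRY2, NR1D2, PER3, CRY1, BMAL1, PER1, CLOCK, PER2 and NPAS2 in retina. In eye BMAL1 and PER1 could not be separated, with a ratio of 1.01 (counting interval 0.981 to 1.04), and all other neighbours differed by more than the counting error. That error does not cover the choice of transcript, and some neighbours changed places with it. By the longest transcripts CLOCK stood above PER2 in eye, at 5.05 and 4.87 RPKM. In retina CRY1 then stood above PER3, at 23.5 and 16.6 RPKM. NR1D1 was first, CRY2 second and NPAS2 last in both tissues under each of 7 ways of taking a level, while PER3 ranged from place 5 to 9 in eye and 3 to 6 in retina. Of these ways, transcripts of 200 bases or more and mammalian hits only gave the members the same values as the highest transcript. Against all 13949 names, NR1D1 was at percentile 93.7 in eye and 97.0 in retina, CRY2 at 89.9 in eye and 92.7 in retina, CLOCK at 38.6 in eye and 45.1 in retina, and NPAS2 at 6.50 in eye and 5.49 in retina.

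Transcripts of like alignment to the protein were compared for the genes that allow it. For 6 genes both tissues held a transcript aligned over at least 90% of the longest alignment of that protein in either table. These were CLOCK, BMAL1, CRY1, CRY2, NR1D1 and NR1D2, and all 6 were lower in eye, with a median difference of -0.56. Where several transcripts qualified the highest was taken, and a retina transcript of CRY2 at 23.4 RPKM lay below the eye transcript at 30.2 RPKM. Transcript lengths could still differ, as for CLOCK, with 2616 bases in eye and 10705 bases in retina, and CRY2, with 1899 bases in eye and 3942 bases in retina. Over all 10287 proteins with such a pair 50.9% were lower in eye and the median was -0.01. The 3 PER genes and NPAS2 had no such pair, and they include the 3 genes that were higher in eye by the reported measure. The 6 compared were already lower in eye by that measure, so their shared direction is not separate support. CLOCK, BMAL1 and CRY1 kept the same transcripts and values. This comparison was added after the transcripts had been seen.

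**Figure D4:**
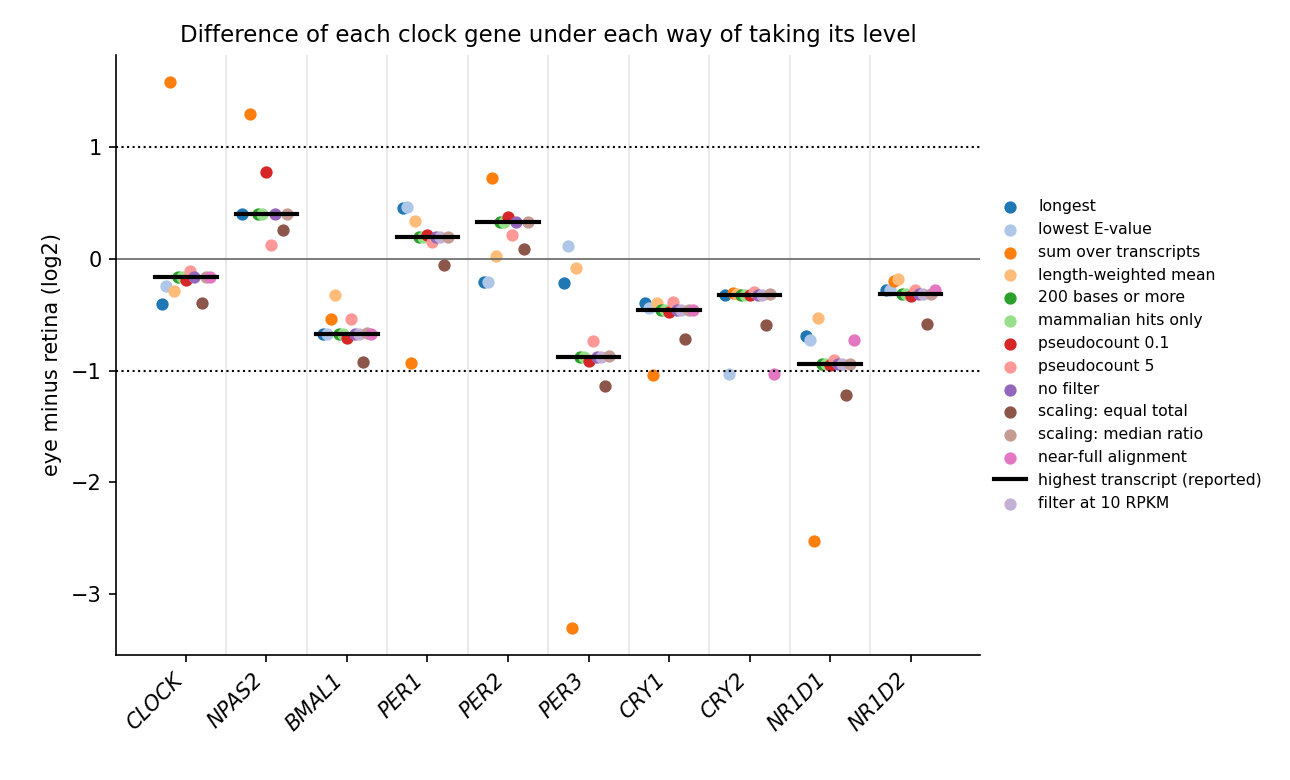
Difference of eye minus retina on the log2 scale (vertical axis) for each clock gene; black bars are the reported values and points the alternatives, with dotted lines at 2-fold. BMAL1, CRY1, CRY2, NR1D1 and NR1D2 lie below 0 in all 14 settings, whereas CLOCK, PER1, PER2 and PER3 have points on both sides. Pseudocounts and filters cannot move a point across 0.

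Further clock genes, from a list of 27 that regulate or read out the loop, mostly showed small differences. Of the 25 with a level in both tissues, 17 were lower in eye, against 50.3% of all proteins, and 8 were higher, with a median of -0.17. By the reported measure none passed 2-fold on the log2(RPKM + 1) scale, against 15.4% of all proteins. On that scale KC1D (1.21) and HLF (2.15) passed it with the longest transcripts. PRGC1 did so with the lowest E-value (-1.11) and near-full alignments (-1.05), and FBW1A (-1.64), DBP (-1.52) and BHE41 (-1.34) with sums. RORB (-1.01) and PRGC1 (-1.22) passed it with equal totals. Over all proteins, those higher and lower in eye by that much numbered 1801 and 383 of 13320 with the longest transcripts. They numbered 1559 and 414 of 13261 with the lowest E-value, and 940 and 207 of 10287 with near-full alignments. The numbers were 2296 and 2637 of 13696 with sums, and 1163 and 877 of 13383 with equal totals. With equal totals 24 of the 25 were lower in eye, against 66.1% of all proteins, so directions of small differences depend on the scaling. The 4 highest by mean level were the output factor DBP, the casein kinase KC1A, the RNA-binding protein NONO and THA. DBP had 130.9 RPKM in eye and 157 RPKM in retina, the retina value from a 123-base fragment. KC1A had 104 RPKM in eye and 88.0 RPKM in retina, and NONO had 87.1 RPKM in eye and 104 RPKM in retina. Other genes of the list are named below after their values had been seen.

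The ROR receptors activate BMAL1 at the sites where REV-ERB receptors repress it. RORB, known for its expression in retina, had 11.3 RPKM in eye and 19.9 RPKM in retina, a difference of -0.76 (-1.01 with equal totals), from transcripts of 9601 bases in eye and 9558 bases in retina. RORA had 10.1 RPKM in eye and 9.61 RPKM in retina, a difference of 0.07 from transcripts of 2158 bases in eye and 10786 bases in retina that was -0.18 with equal totals, and RORG, at 2.14 RPKM, had a level in eye only. BMAL2, the BMAL1 paralog, was low in both, at 3.26 RPKM in eye and 3.81 RPKM in retina.

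Among kinases that phosphorylate PER proteins 4 of 5 had a slightly higher value in eye, against 49.7% of all proteins, with a median of 0.11. With equal totals all 5 lay below retina, against 66.1% of all proteins. Their median was then -0.14, and that of all proteins was -0.24. The 4 include KC1E at 37.9 RPKM in eye and 31.4 RPKM in retina and KC1D at 31.0 RPKM in eye and 28.8 RPKM in retina. The exception was CSK21, a casein kinase 2 subunit, at -0.18. All 3 genes of protein turnover compared had lower values in eye, against 50.3% of all proteins, with a median of -0.48. FBW1A, the ubiquitin ligase subunit that binds phosphorylated PER proteins, was at 11.5 RPKM in eye and 17.0 RPKM in retina. The deubiquitinase USP2 was at 37.5 RPKM in eye and 52.7 RPKM in retina, and FXL21, at 1.09 RPKM, had a level in eye only. FBW1B, a close relative of FBW1A, differed by only -0.09.

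All 4 factors of the D-box group, through which the clock is read out, had lower values in eye, against 50.3% of all proteins, with a median of -0.29. With the longest transcripts 2 of the 4 were higher in eye, and without fragments under 200 bases the DBP difference was 0.24. HLF had 49.0 RPKM in eye and 77.6 RPKM in retina, a difference of -0.65 that was 2.15 with the longest transcripts, and TEF had 82.1 RPKM in eye and 85.5 RPKM in retina, a difference of -0.06. The repressor NFIL3, which competes at the same sites, was at 5.49 RPKM in eye and 7.18 RPKM in retina. Of the bHLH repressors of CLOCK and BMAL1, BHE40 was at 26.5 RPKM in eye and 18.2 RPKM in retina, a difference of 0.52 that was -0.99 with sums. BHE41 was at 35.2 RPKM in eye and 56.1 RPKM in retina, a difference of -0.66 that was 0.08 with the lowest E-value. CIART, a repressor listed under its older name C1orf51, was at 9.42 RPKM in eye and 11.2 RPKM in retina. The largest difference of the list was -0.99, for the coactivator PRGC1 at 5.29 RPKM in eye and 11.5 RPKM in retina. Without the pseudocount this is a ratio of 0.461 in eye over retina, past 2-fold.

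**Figure D5:**
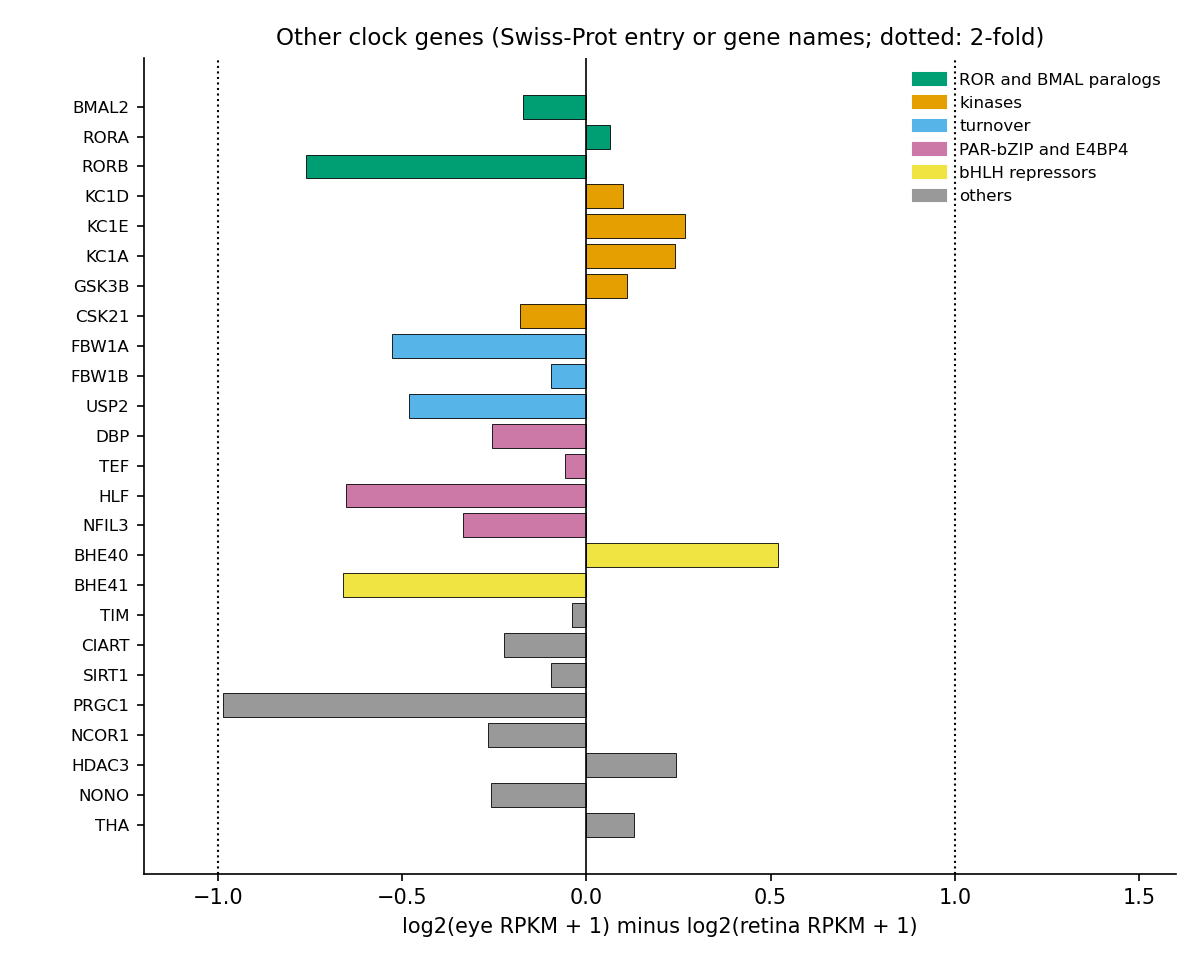
Difference of eye minus retina (horizontal axis, log2) for the 25 further clock genes with a level in both tissues, coloured by role, with dotted lines at 2-fold. All 3 genes of turnover and all 4 of the PAR-bZIP and E4BP4 group lie left of 0, 4 of 5 kinases lie right of it, and PRGC1 lies nearest to the mark. With equal totals all 5 kinases lie left of 0, against 66.1% of all proteins.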

How the data were processed

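Per the labels, RNA of 2 eye and 3 retina libraries was sequenced, each from RNA pooled from 4 animals. The submitters' processing notes name Bowtie without a version. For the assembler, the counting and the use of strand, the sources used here give nothing. The authors deposited 1 expression value per assembled transcript and tissue, read here as RPKM because value times length is a whole multiple of 1 constant, within 0.01 reads, for 100% of transcripts. They also deposited, per the file headers, an E-value, a bit score and percent positives of the best Swiss-Prot hit. Reads recovered from RPKM summed to 19.2 times the scaling total in eye and 10.5 times in retina, so reads recur across transcripts or the total is another one. Intervals treat reads as independent.

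Transcripts were joined by protein name before the species code, with the highest transcript as the level (Python 3.11.15, pandas 2.3.3), and the functions were tested on simulated data. Of the further clock genes, USP2, CIART and SIRT1 were found under the Swiss-Prot names UBP2, CA051 and SIR1, set after the planned names gave no match. Another gene of the planned list is not reported here. Named genes were all members, list genes past 2-fold and the 4 highest of the list, with others named as stated. All 10 member symbols occur in the RefSeq table of this species. Alternatives covered the choice of transcript, pseudocount, filter, scaling and hit species. Members and lists were chosen with earlier results of these data known.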

Additional observations from a re-analysis of the deposited data

How the results depend on the processing

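The number of clock genes lower in eye stayed within 1.5 times of 7 under all 13 alternatives, of which 1, transcripts of near-full alignment, was chosen after seeing the data. With 10 genes the number could not leave this band upward. Pseudocounts and filters cannot change a gene's direction. Without fragments under 200 bases, or with mammalian hits only, the members' differences were those of the reported measure. Among the other alternatives CLOCK, PER1, PER2 and PER3 each changed direction in some setting, so a stable number does not mean stable genes. No gene passed 2-fold by the reported measure, but 5 of 10 did with transcripts summed and 2 of 10 with scaling to an equal total. With the lowest E-value 1 of 9 did, and with near-full alignments 1 of 6. Of 13696 proteins with sums, 2296 were higher in eye by that much and 2637 lower. With equal totals the numbers were 1163 higher and 877 lower of 13383. They were 1559 and 414 of 13261 with the lowest E-value, and 940 and 207 of 10287 with near-full alignments. The 5 with sums were CLOCK (1.58), NPAS2 (1.29), CRY1 (-1.04), NR1D1 (-2.53) and PER3 (-3.30), and PER1 then differed by -0.93. A sum takes in every piece, and it would count a read repeatedly if that read was counted on several transcripts. The number of pieces was 1 in eye and 10 in retina for PER3, and 4 in eye and 1 in retina for CLOCK. The members' median was -0.42 with sums and -0.59 with equal totals. It was -0.28 with the lowest E-value and -0.29 with length-weighted means, both without NPAS2. With a filter at 10 RPKM, which kept 7 genes, it was -0.46, and with near-full alignments, which kept 6, it was -0.56. Equal totals moved the median of all proteins to -0.24. Proteins at least 2-fold higher in eye numbered 1577 of 13383 by the reported measure. There were 815 of 13383 with a pseudocount of 5, 921 of 7190 with the filter at 10 RPKM and 940 of 10287 with near-full alignments. Those at least 2-fold lower numbered 482 of 13383, against 2637 of 13696 with sums and 272 of 13275 with length-weighted means. There were 265 of 13383 with a pseudocount of 5, 877 of 13383 with equal totals and 207 of 10287 with near-full alignments. The cause of these shifts between settings was not tested. No paired analysis was possible because each tissue has 1 pooled column with no replicate number, and for the same reason no library could be left out.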
